A study of Mus musculus with 16 samples.

Results

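DNA methylation was compared between embryoid bodies (EBs) and the mouse embryonic stem cells (mESCs) they were made from, in the control arm of the study. The comparison takes the 2 libraries titled EB shCtrl and the 2 titled mESC shCtrl, 4 of the 16 libraries of the series, and the 858530 CpGs that had at least 10 reads in each of them once both strands of a CpG were summed. All 4 libraries came from E14 cells, a 129/Ola mESC line grown on gelatin in serum with leukaemia inhibitory factor (LIF). Both groups carried shCtrl, a lentiviral control shRNA. Per the paper, the shRNAs were put into E14 cells at young passage, which the library titles do not state. EB shCtrl was made from such cells by withdrawing LIF and letting them aggregate in hanging drops, then in suspension, before they were plated on gelatin. EB DNA for RRBS was taken on day 8 of differentiation, a day that the labels do not state. The labels give no separate culture for each replicate, so p-values here measure at most the spread between these libraries, which may be technical. An EB is a mixture of differentiating cell types and DNA was taken from whole cultures, so a higher level can stand for more methylated cells or for more methylation in each cell, and these cannot be told apart. The series holds no expression measurement, so for the markers of mESCs and of EB lineages only DNA methylation could be checked.

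Methylation of cytosine at CpGs is set by the de novo methyltransferases DNMT3A and DNMT3B, copied at replication by DNMT1 with UHRF1, and removed with the help of the TET dioxygenases. Most CpGs in somatic cells are methylated, whereas CpG islands, the CpG-dense stretches at many promoters, usually are not. mESCs in serum have less methylation than the post-implantation epiblast, and as they leave pluripotency, promoters and enhancers of pluripotency genes and the promoters of germline genes are known to gain it. Reduced representation bisulfite sequencing (RRBS) cuts the genome with a restriction enzyme at CpG-containing sites and so over-represents CpG-dense DNA, and the percentage of reads that stay cytosine after bisulfite treatment is read as the methylation level.

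The libraries held between 29954330 and 40402944 reads on 1000401 to 1152402 CpGs, and a CpG common to all 4 had a median of 25 to 36 reads per library. Across the common CpGs the replicates correlated with Pearson's r of 0.981 in EBs and 0.980 in mESCs, and every pair across the groups fell between 0.944 and 0.946. Mitochondrial CpGs read 0.28% to 0.32%. The share of reads that fell on CpG-dense sites varied between libraries within each group, from 57.2% to 65.2% in EBs and from 55.7% to 61.8% in mESCs, so levels were averaged over the same CpGs with equal weight. Weighted by reads instead, the EB libraries read 36.7% and 32.0% and the mESC libraries 29.3% and 32.8%, and the groups overlapped.

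EBs were more methylated than mESCs. The mean level of the common CpGs was 36.08% and 36.41% in the EB libraries and 31.83% and 31.68% in the mESC libraries, a difference of 4.49 percentage points (36.25% ± 0.23 against 31.75% ± 0.10, SD, n = 2 each). The groups did not overlap, but 2 libraries against 2 cannot give an exact permutation p below 0.33 (two-sided), and that is the p for every mean over a class of sites given here. Sites under 20% methylation made up 55.5% and 54.7% of the CpGs in EBs against 59.7% and 60.4% in mESCs. Sites over 80% made up 29.2% and 29.5% in EBs against 24.4% and 24.6% in mESCs. The share in between was 15.1% to 15.9% in every library.

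The difference in points was smallest where CpGs were densest. Sites with at least 12 CpGs of the genome in the 200 bases around them, here called CpG-dense, numbered 493159 and read 8.74% and 9.05% in EBs against 6.57% and 6.35% in mESCs, a rise of 2.43 points or 1.38-fold. The 121122 CpG-sparse sites, with at most 4 CpGs in 200 bases, read 82.60% and 82.89% against 77.09% and 77.04%, a rise of 5.69 points or 1.07-fold. Between these the rise was 7.76 points at 5 to 7 CpGs in 200 bases and 8.42 points at 8 to 11, the highest of the 6 density classes, and it was 1.63 points at 16 and over. The EB libraries were above both mESC libraries in each density class.

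**Figure D1:**
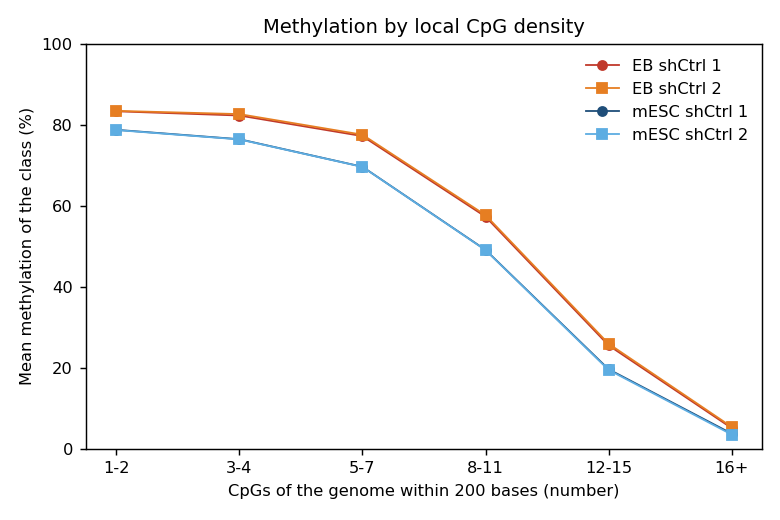
Mean methylation (%) of the common CpGs by the number of CpGs in the 200 bases around them, 1 line per library. The 2 EB lines lie above the 2 mESC lines in all 6 classes, by 8.42 points at 8 to 11 CpGs and by 1.63 points at 16 and over.

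By position in genes, the rise was smallest at promoters and largest in exons outside them. Promoter CpGs, from 1000 bases before to 500 bases after a start site, read 6.87% and 7.18% in EBs and 5.33% and 5.10% in mESCs, a rise of 1.81 points. Exonic CpGs outside promoters read 57.86% and 58.22% against 48.92% and 48.87%, a rise of 9.15 points. Introns rose by 6.67 points and DNA outside genes by 5.80 points. The few CpG-sparse promoter sites, 4798 in number, rose by 11.22 points, and the 361569 CpG-dense promoter sites rose by 1.11. CpG-dense sites inside genes but away from promoters went from 14.35% to 20.88%, a rise of 6.54 points, so that dense sites differed by where they lay. The rise on chromosome X was 3.82 points, within the 3.44 to 5.41 points of the 19 autosomes.

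Around the start sites of protein-coding genes the trough of methylation was kept and its shoulders were raised. In the 250 bases before the start the EB libraries read 4.67% and 4.98% and the mESC libraries 3.72% and 3.47%, a difference of 1.23 points. From 3250 to 3500 bases after the start they read 45.37% and 45.80% against 36.24% and 36.39%, a difference of 9.27 points. The outermost upstream bin, 5000 to 4750 bases before the start, differed by 7.73 points.

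**Figure D2:**
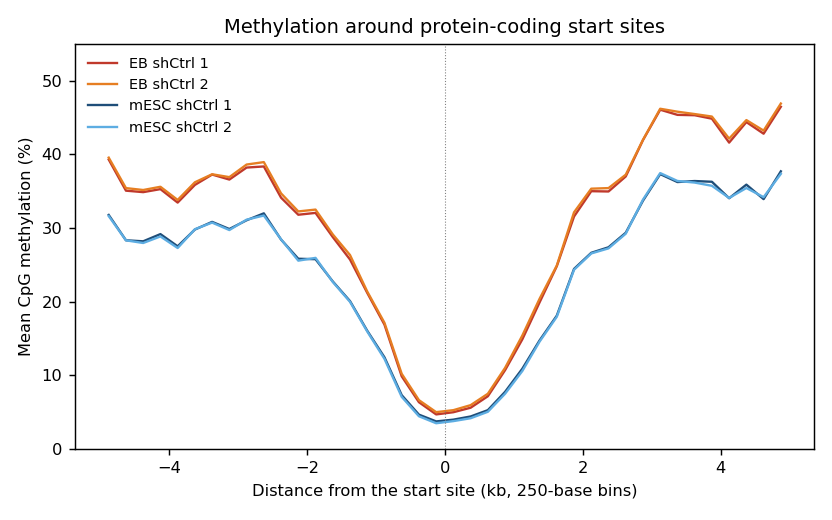
Mean CpG methylation (%) in 250-base bins by distance (kb) from protein-coding start sites, 1 line per library. EB and mESC lines come within 1.23 points of each other just before the start and are 9.27 points apart at 3250 to 3500 bases after it.

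What a site gained also went with how methylated it was in mESCs. To group sites by their mESC level without using the compared libraries, the mean of the 2 mESC shβcat #1 libraries, which carry an shRNA against β-catenin, was used. Sites at 0 to 10% in that grouping rose from 1.05% to 3.32% as a whole, but the 5711 CpG-sparse ones among them read 25.12% and 25.18% in EBs against 3.41% and 3.50% in mESCs, a rise of 21.69 points. Sparse sites at 10 to 30% rose by 37.33 points, those at 30 to 70% by 25.77 points and those at 70 to 90% by 5.22 points. Sites at 90 to 100% were the exception, with 91.16% and 91.38% in EBs and 92.28% in both mESC libraries, a difference of -1.0 points. CpG-dense sites at 10 to 30% rose by 10.06 points and at 30 to 70% by 12.02. When untransduced E14 mESCs at young passage set the groups instead, the same dense classes rose by 23.44 and 19.70 points and the sparse ones by 34.52 and 19.71, so the gap between dense and sparse sites depended on the grouping library.

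**Figure D3:**
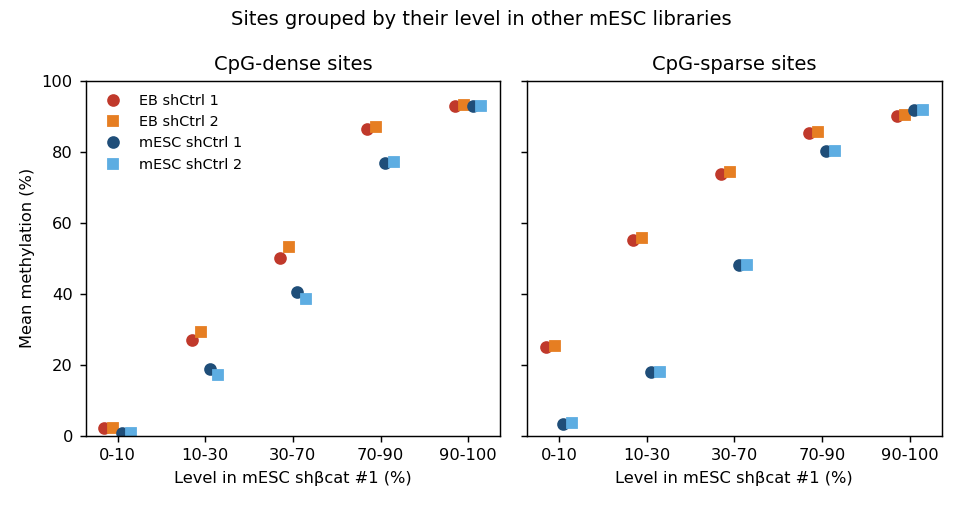
Mean methylation (%) of CpG-dense and CpG-sparse sites, grouped by their level in the mESC shβcat #1 libraries, 1 point per library. EB points lie above mESC points except at 90 to 100% for sparse sites, where the difference is -1.61 points, and the gap is widest, 37.33 points, for sparse sites at 10 to 30%.

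At the level of single CpGs, 52007 of 858530 were called higher in EBs (6.06%) and 569 lower (0.0663%), at a Benjamini-Hochberg adjusted p under 0.05 and more than 25 points. The test was a binomial model of the reads, summed over the replicates of a group, with 1 overdispersion shared by all CpGs, 1.25. Its p therefore does not use the spread between libraries at each single CpG. Called rises made up 13.1% of the exonic sites outside promoters, 9.25% of the CpG-sparse sites, 2.49% of the CpG-dense sites and 0.765% of the dense promoter sites. Features were then tested with edgeR's quasi-likelihood F test on methylated and unmethylated reads and called at an adjusted p under 0.05 and more than 10 points. Windows were 1 kb with at least 5 common CpGs, promoters had at least 2, and gene bodies, from 500 bases after the first start to the end of the gene without the promoters of other genes, at least 5. A body keeps the CpGs at later starts of its own gene, so the promoter and body of a gene can share sites. Of 40511 windows, 8102 were higher in EBs (20%) and 81 lower (0.2%). Among 13826 promoters, 1063 were higher (7.69%) and 7 lower (0.0506%), and among 10865 gene bodies, 2554 were higher (23.5%) and 5 lower (0.0460%). Of dense promoters 3.85% rose, against 25.2% of those of intermediate density. Of all promoters 21 went from under 10% to over 50%, 2 of them dense. The counts of falls depended on single libraries: without EB shCtrl replicate 2 there were 1280 CpGs and 195 windows lower, without mESC shCtrl replicate 1 there were 875 CpGs, and without EB shCtrl replicate 1 or mESC shCtrl replicate 2 there were 3 gene bodies.

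Genes listed for naive and core pluripotency were among those whose promoters gained methylation. The list held 37 genes, and 25 had a promoter with at least 2 common CpGs. Of these, 9 rose (36.0%, where 7.69% of all promoters did) and none fell, and the median change was 2.52 points against 0.56 for all promoters. The 9 were Tet1, Spp1, Tcl1, Dppa2, Prdm14, Zfp42, Tdgf1, Pou5f1 and Gdf3, and in each both EB libraries were above both mESC libraries. Promoters of Nanog, Tfcp2l1, Dppa3 and 9 others of the list had too few common CpGs for a value.

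Stretches of the Zfp42, Prdm14 and Pou5f1 promoters, and of that of the gene Vrtn described further on are printed here because their measured CpGs carry the change and lie close together. The sequences are of the mm9 build, 5′ to 3′ on the strand of the gene, and capitals mark the measured CpGs. The Zfp42 stretch is chr8:44392709-44392783, minus strand, 420 to 346 bases before the start site. The Prdm14 stretch is chr1:13116837-13117005, minus strand, 239 to 407 bases after the start site. The first Pou5f1 stretch is chr17:35643508-35643611, plus strand, 919 to 816 bases before the start site, and the second is chr17:35644181-35644310, 246 to 117 bases before it. The Vrtn stretch is chr12:85982991-85983242, plus strand, 514 to 263 bases before the start site. None overlaps an annotated exon of a protein-coding transcript, and other exons were not checked.
Zfp42: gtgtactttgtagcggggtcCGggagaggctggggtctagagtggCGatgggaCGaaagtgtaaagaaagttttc
Prdm14: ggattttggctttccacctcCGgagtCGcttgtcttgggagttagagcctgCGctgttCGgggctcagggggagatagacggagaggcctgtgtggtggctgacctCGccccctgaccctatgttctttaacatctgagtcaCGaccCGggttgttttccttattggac
Pou5f1, distal: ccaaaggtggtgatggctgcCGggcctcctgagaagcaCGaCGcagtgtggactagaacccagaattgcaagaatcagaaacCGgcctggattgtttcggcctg
Pou5f1, proximal: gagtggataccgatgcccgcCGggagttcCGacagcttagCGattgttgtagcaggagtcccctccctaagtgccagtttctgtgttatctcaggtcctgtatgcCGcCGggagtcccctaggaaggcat
Vrtn: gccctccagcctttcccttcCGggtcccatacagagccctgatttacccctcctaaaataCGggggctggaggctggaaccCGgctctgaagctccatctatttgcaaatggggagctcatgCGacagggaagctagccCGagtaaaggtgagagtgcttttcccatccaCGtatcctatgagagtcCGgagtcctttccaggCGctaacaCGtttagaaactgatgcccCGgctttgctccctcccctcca

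Pou5f1 encodes OCT4, the POU factor without which pluripotency is lost. The 9 measured CpGs of its promoter read 9.6% and 16.1% in EBs and 0.3% and 0.0% in mESCs, a rise of 12.7 points (edgeR adjusted p = 1.1e-06). The gain was uneven along the promoter. The 4 CpGs of the distal stretch read 16.7% and 26.0% in EBs, and the 5 of the proximal stretch read 3.9% and 8.2%, while the mESC libraries were at or below 0.6% in both. The call was lost with promoters of 250 bases on either side of the start and without EB shCtrl replicate 2. The body of Pou5f1, over 14 CpGs, went from 0.2% and 0.0% to 13.2% and 15.1%. It is counted from an earlier start at chr17:35642982 and includes the 9 promoter CpGs, so it is not a separate result.

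Zfp42 encodes REX1, a zinc finger protein lost early in differentiation. The 3 CpGs of its promoter read 28.1% and 23.3% in EBs and 0.0% and 0.7% in mESCs, and each CpG alone was higher in both EB libraries. The change of the Zfp42 promoter was 25.4 points. Without EB shCtrl replicate 2 it was 40.2 points, over the CpGs common to the remaining libraries, which were not the same sites. The Zfp42 gene body changed far more, from 6.9% and 6.3% to 61.1% and 67.3% over 16 CpGs. That rise of 57.6 points was the largest among the gene bodies of the pluripotency list. Prdm14, a repressor of DNMT3 expression in naive cells, went from 5.2% and 6.8% to 47.2% and 35.3% at its 7 promoter CpGs. Of the sites printed for Prdm14, the one farthest from the start site changed least, with 8.5% and 16.7% in EBs.

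Tet1, which encodes the main TET dioxygenase of mESCs, had the largest promoter rise of the list. Its 6 CpGs read 82.2% and 77.6% in EBs and 22.1% and 15.9% in mESCs, 61.0 points apart (edgeR adjusted p = 6.4e-08). These CpGs lie 135 to 425 bases after an annotated start at chr10:62342762, inside an exon, and the other 3 annotated starts, among them the one farthest upstream at chr10:62361866, had no common CpG, so the value describes that start only. The body of Tet1, over 56 CpGs that include these 6, rose by 16.4 points. Tcl1, a co-activator of AKT, went from 4.0% and 0.0% to 52.1% and 45.9% over 3 CpGs, and Dppa2, a regulator of bivalent developmental promoters, from 0.0% and 3.9% to 37.6% and 43.8%, also over 3. Spp1, which encodes osteopontin, rested on 2 CpGs with at least 24 reads in each library over both together, and read 69.9% and 79.4% against 17.7% and 18.0%. The Spp1 value belongs to an annotated start at chr5:104865211, and the other annotated starts, all upstream, had no common CpG. Tdgf1, a NODAL co-receptor, read 26.2% and 10.9% in EBs and 0.0% in both mESC libraries, and without EB shCtrl replicate 1 the change of the Tdgf1 promoter was 10.9 points in place of 18.6. The TGF-β ligand Gdf3 read 10.9% and 15.0% against 0.0% and 3.9%. The call on Gdf3 was lost without EB shCtrl replicate 2 and without mESC shCtrl replicate 1.

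Other pluripotency promoters stayed low. Sox2, over 35 CpGs, read 0.5% and 1.9% in EBs and 2.1% and 0.8% in mESCs. Klf4 read 2.5% and 2.4% against 0.4% and 0.8%, a difference of 1.8 points that passed the adjusted p (edgeR, 5.6e-04) and not the 10 points. Esrrb read 6.8% and 5.8% against 5.1% and 1.8% at its promoter, but its body read 44.4% in both EB libraries and 23.4% and 23.7% in mESCs. Of the 28 bodies of the list with a value, 13 rose (46.4%, where 23.5% of all gene bodies did): Zfp42, Dppa3, Tet2, Lefty2, Prdm14, Lefty1, Esrrb, Tet1, Sall4, Pecam1, Tbx3, Pou5f1 and Klf5. None fell. The Tet1 and Pou5f1 bodies include the CpGs of their promoter values. Dppa3, a maternal factor that restrains UHRF1, had no promoter value, and its body went from 37.3% and 34.0% to 69.2% and 69.5%. The Tbx3 body went from 2.1% and 2.4% to 17.9% and 15.4%, while its promoter was at or below 0.6% in all 4 libraries. Tet1, Tet2, Dppa3, Zfp57 and Trim28 are also in the list of DNA methylation genes.

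**Figure D4:**
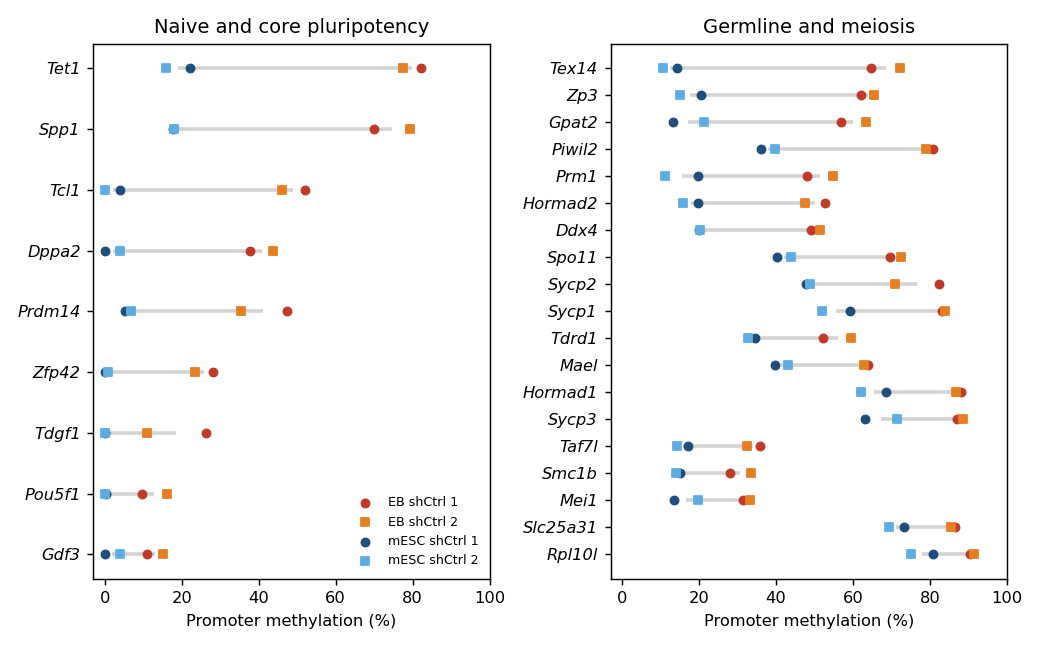
Promoter methylation (%) of the 9 pluripotency genes and 19 germline genes called higher in EBs, 1 point per library, with a grey line between the group means. The pluripotency promoters start below 25% in mESCs and the germline promoters between 10.7% and 80.8%, and in each gene both EB points lie to the right of both mESC points.

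Genes of the primed and formative states, which are used after naive pluripotency ends, had no promoter called higher or lower by edgeR among the 17 of 18 with a value, and the median change was 0.50 points. The adjusted p of Otx2, Foxd3 and Igfbp3 was under 0.05 without a change of 10 points. Fgf5, an epiblast growth factor, read 4.2% and 5.7% in EBs against 6.4% and 5.1% in mESCs. Otx2, a regulator of the primed state, came closest to a call, with 10.9% and 14% against 3.9% and 3.8% (edgeR adjusted p = 0.00495, 8.5 points). Sall2 was the only body of this list called, at 11.3 points.

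Of the 11 lists examined, the germline list had the highest share of called promoters. These genes serve meiosis, the piRNA pathway, sperm or egg, and many are kept silent in somatic cells by promoter methylation. Of 71 genes, 42 had a promoter value, 19 rose (45.2%, where 7.69% of all promoters did) and none fell. The median promoter stood at 41.8% in mESCs and 73.8% in EBs, where the median of all promoters in mESCs was 2.6%. Grouped by level in mESC shβcat #1, 2.75% of all promoters at 0 to 10% were called higher and 34.7% at 10 to 30%. The share was 51.8% at 30 to 70%, 18.2% at 70 to 90% and 1.12% at 90 to 100%. The share of all promoters is thus not matched to the germline list for starting level, and 45.2% lies within the range of these classes. The median change over the 42 was 8.15 points, and the changes ran from -7.34 to 56.04 points. In the bodies of the list 3 of 21 were called (14.3%, where 23.5% of all bodies were), Taf7l, Tuba3a and Prdm1, and the Taf7l body has the same 15 CpGs as its promoter.

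Tex14, needed for the bridges between germ cells, read 64.8% and 72.1% in EBs and 14.2% and 10.7% in mESCs, but its 6 CpGs are also those of the promoter of Rad51c, a DNA repair gene that starts on the other strand. Ddx4, the germ cell RNA helicase also called VASA, went from 20.1% and 20.3% to 49.1% and 51.3% over 23 CpGs, 30 points (edgeR adjusted p = 5.6e-05). Piwil2, a piRNA-binding protein, went from 36.2% and 39.6% to 80.9% and 78.9%. In each of these 3 genes the groups were farther apart than the replicates of either.

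Of the genes of the synaptonemal complex, Sycp1 read 83.1% and 84.0% in EBs against 59.2% and 52.0% in mESCs, Sycp2 82.4% and 70.8% against 47.7% and 48.9%, and Sycp3 87.0% and 88.6% against 63.1% and 71.4%. With at least 20 reads per CpG the Sycp2 promoter differed by 3.1 points and lost the call (edgeR adjusted p = 0.617), and the Sycp3 promoter differed by 12.3 points and kept it. Spo11, the nuclease that makes meiotic double-strand breaks, rose by 28.8 points, Hormad2 by 32.4 and Hormad1 by 21.9. Of the piRNA pathway, Mael rose by 22.0 points, Tdrd1 by 22.4 and Gpat2 by 42.8. The others called were Zp3, Prm1, Taf7l, Smc1b, Mei1, Slc25a31 and Rpl10l, which rose by 13.0 to 46.0 points. Some of the 19 calls were lost when 1 library was left out. That on Tdrd1 was lost without EB shCtrl replicate 2 and without mESC shCtrl replicate 2, and that on Slc25a31 without EB shCtrl replicate 1 and without mESC shCtrl replicate 2. Rpl10l and Taf7l lost it without mESC shCtrl replicate 2, and Smc1b and Mei1 without mESC shCtrl replicate 1. With at least 20 reads the Slc25a31 promoter differed by 4.2 points and was not called, and with promoters of 250 bases on either side of the start Smc1b and Rpl10l were not. Dazl, a germ cell RNA-binding protein, read 45.0% and 43.1% against 35.4% and 36.3% over 53 CpGs, a difference of 8.2 points that did not pass the test (edgeR adjusted p = 0.365). Nobox, an oocyte factor, had the lowest change, with 90.8% and 78.4% in EBs and 91.1% and 92.7% in mESCs. Promoters of Kit, Prdm1, Stag3, Syce2, Ybx2 and Mei4 stayed at or below 6.8% in all libraries.

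Stretches of 2 germline promoters are shown for the density of their measured CpGs, with capitals marking those CpGs as above (mm9, 5′ to 3′). The Ddx4 stretch is chr13:113442519-113442632, minus strand, the last 114 bases before the start site, with 16 measured CpGs. The Sycp1 stretch is chr3:102739719-102739827, minus strand, 196 to 304 bases after the start site, with 10 measured CpGs. It lies outside annotated exons of protein-coding transcripts.
Ddx4: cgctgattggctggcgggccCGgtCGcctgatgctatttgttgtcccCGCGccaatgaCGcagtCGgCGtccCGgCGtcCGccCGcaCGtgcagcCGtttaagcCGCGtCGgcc
Sycp1: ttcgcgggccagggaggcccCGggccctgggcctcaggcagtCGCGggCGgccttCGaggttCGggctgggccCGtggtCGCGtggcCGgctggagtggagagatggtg
The Ddx4 stretch read 41.8% and 48.8% in EBs and 15.9% and 16.7% in mESCs, and the Sycp1 stretch read 75.2% and 75.9% against 39.7% and 28.7%. In both, the difference was larger than the gap between replicates. The palindrome CACGTG, the E-box read by MAX partners such as MGA, was present in 24 of the 42 germline promoters with a value (57.1%) and in 26.7% of all 13826. Among the 19 called germline promoters 12 held it (63.2%), and among all 1063 promoters called higher 257 did (24.2%). The E2F-type motif GGCGGGAA, or TTCCCGCC on the other strand, was present in 8 of the 42 (19%), in 12.2% of all and in 7.81% of the 1063 called higher. Neither motif overlaps the other, promoters were searched over their 1500 bases on both strands, and a match is a description of the sequence only.

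Regulators of the germ layers had few promoters called, but most of their promoters moved up a little. In the ectoderm and neural list 47 genes had a promoter value, 43 of them above 0, with a median change of 2.01 points. The median was 1.68 points in the mesoderm and cardiac list (42 of 46 above 0) and 1.18 in the endoderm list (21 of 23). All promoters had a median of 0.56 points, with 10474 of 13826 above 0. Pax6, an eye and forebrain regulator, read 3.6% and 3.8% in EBs against 2.7% and 2.8% in mESCs. Sox1 had no promoter value. In the mesoderm and cardiac list 3 of 46 were called. Tbx6, of presomitic mesoderm, read 44.0% and 40.5% against 19.7% and 22.6%, Hand1, of heart and trophoblast, 62.3% and 59.8% against 42.4% and 40.7%, and Pax1, of the sclerotome, 42.8% and 47.6% against 23.3% and 27.3%. The cardiac factor Nkx2-5 read 53.0% and 60.1% against 37.0% and 42.6%, a difference of 16.7 points just short of the threshold (edgeR adjusted p = 0.0520). Gata4, a cardiac and endodermal factor, read 2.4% to 2.7% in all 4 libraries, and Mixl1, of the primitive streak, 4.8% to 6.2%.

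In the endoderm list 2 of 23 promoters were called, Cdx1 at 11.1 points and Pdx1 at 12.2, and Sox17 read 27.8% and 27.7% in EBs against 17.0% and 17.4% (edgeR adjusted p = 0.0782). Foxa2 and Gata6 differed by 1.0 and 1.1 points. In the trophoblast list 1 of 10 was called, Bmp8b at 11.1 points. Elf5, whose promoter methylation separates embryonic from trophoblast cells, stood at 85.7% and 73.9% in EBs and 80.7% and 89.7% in mESCs, and the groups overlapped. In the Hox clusters 2 of 36 were called, Hoxd12, from 33.6% and 35.5% to 64.5% and 60.5%, and Hoxc6 at 13.4 points. Of the Wnt pathway 2 of 50 were called, Dkk3 at 24.7 points and Cdx1 again. The share called in the mesoderm, endoderm, trophoblast, Hox and Wnt lists was 4% to 10%, where 7.69% of all promoters were called. Cdx1, Pdx1, Hand1, Hoxc6, Bmp8b, Tbx6 and Pax1 each lost the call under at least 1 alternative.

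Among the bodies of lineage genes, 13 of 48 of the mesoderm list rose (27.1%, where 23.5% of all bodies did). They included Myl7, the atrial myosin light chain, at 31.7 points, the cardiac factors Mef2c at 29.0, Tbx20 at 23.2 and Tbx5 at 21.9, and the myosin heavy chain Myh7 at 18.8. For ectoderm 5 of 48 rose (10.4%), for endoderm 6 of 24 (25%), for the Hox clusters 7 of 35 (20%) and for the Wnt pathway 7 of 45 (15.6%), and 1 of 11 trophoblast bodies did. Hoxb1 had the largest rise among Hox bodies, 24.7 points, and Tcf7l1, the Wnt pathway repressor TCF3 of mESCs, the largest among Wnt bodies, 19.3 points. Except for the mesoderm and endoderm lists these shares were below the 23.5% of all gene bodies.

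The genes of the methylation machinery were low at their promoters in both groups. Of 22 promoters with a value 1 was called, Tet1 (4.55%, where 7.69% of all promoters were). Dnmt1, Dnmt3a, Dnmt3b, Uhrf1, Tet2 and Tdg stood at or below 4.5% in all 4 libraries. Of their bodies 9 of 22 rose (40.9%, where 23.5% of all bodies did), namely Dppa3, Apobec1, Tet2, Mbd1, Ehmt2, Mbd3, Tet1, Gadd45b and Dnmt1. Tet2 went from 25.3% and 23.7% to 58.1% and 56.0%, and Dnmt1 from 66.7% and 64.9% to 75.6% and 77.1%. The Dnmt3b body stood at 69.2% to 70.8% over the 4 libraries. As a reference, none of 19 housekeeping promoters was called, the smallest adjusted p being 0.343 with edgeR, their median change was 0.10 points, and Gapdh stood at 0.4% or lower in each library. Of 11 housekeeping bodies 2 rose (18.2%), Tubb5 at 30.8 points and Gusb at 17.2.

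Over all genes, in a list or not, the 12 largest promoter rises among called genes with at least 5 common CpGs ran from 48.6 to 62.3 points. Fndc7, a fibronectin-domain gene, led with 70% and 68.4% in EBs and 8.9% and 4.9% in mESCs over 5 CpGs. Tet1, Trim72, Rad51c and Tex14 with their shared CpGs, Slc39a4, Calhm2, Trim63, Adamts4, Rin1, Slc15a1 and Exoc3l followed. Slc15a1, an intestinal peptide transporter, had the most sites of these, 19, and read 52.3% and 55.8% against 3.8% and 4.3%. Trim72 and Trim63 are muscle ubiquitin ligases and rose by 56.3 and 51.5 points.

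Among gene bodies the 6 largest rises with at least 10 CpGs were those of Daxx, Naif1, Csrp2, Pipox, Acin1 and Zfp42, from 57.6 to 61.9 points. Daxx, a chaperone of histone H3.3, went from 7.5% and 8.6% to 65.1% and 74.8% in its body while the 43 CpGs at its upstream starts stayed between 1.1% and 1.9%. Acin1, an RNA-processing factor, went from 28.2% in both mESC libraries to 85.5% and 86.6% in its body, and 19 CpGs at an internal start at chr14:55263047 went from 12.3% and 12.9% to 86.0% and 86.1%. Its upstream start at chr14:55304897 stayed at 1.0% to 1.8%. In both genes the upstream starts stayed low while the body rose.

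Runs of neighbouring CpGs that each moved by more than 25 points, at least 10 of them with gaps under 2 kb, formed 872 regions higher in EBs and none lower. The longest runs lay in genes. The region with most changed CpGs, 104, covered the promoter and exons of Zfp865, a zinc finger gene, at chr7:4980763-4983757, and read 53.7% and 54.6% in EBs against 9.5% in both mESC libraries. An exon of Shroom3, which shapes epithelial cells, held 76, at 53.4% and 56.5% against 15.2% and 15.9%. The next were Grin3b with ORF61 at 72 changed CpGs, Pias4 at 63, and Isyna1 with Ssbp4 at 62. The regions were chosen on the change, so no test is attached to them.

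Losses were few. Of the 7 promoters called lower, 4 had at least 5 common CpGs, those of Vrtn, Celf2, Tnfrsf1a and BC066135, a gene known by its clone name only. Vrtn, which affects the number of thoracic vertebrae and is printed above, read 31.6% and 28.7% in EBs and 65.9% and 68.9% in mESCs over 13 CpGs, a difference of -37.2 points (edgeR adjusted p = 6.7e-05). Its 10 CpGs in the printed stretch went from 60.4% and 65.5% to 23.0% and 25.1%. The Vrtn body fell by 12 points over 22 CpGs, but it is counted from an earlier start at chr12:85981969 and holds the 13 promoter CpGs. The fall of the body therefore comes from these promoter CpGs, and the rest of the body rose. The change of the Vrtn gene body was -27.7 points with at least 20 reads, and its call was lost without mESC shCtrl replicate 2. Celf2, an RNA-splicing factor, read 49.8% and 43.4% against 64.0% and 69.3%, and Tnfrsf1a, a TNF receptor, 56.0% and 61.2% against 75.0% and 75.5%. The calls on Celf2 and Tnfrsf1a were each lost under 4 of 10 alternatives, and that on the Vrtn promoter under none. Of the 81 windows called lower, the following were picked after their values were seen. The window with the largest fall, in Sh3rf1 at chr8:63762000-63762999, read 28.0% and 31.5% in EBs against 75.0% and 80% in mESCs. A window in Ehbp1 at chr11:21907000-21907999 read 42.3% and 46.3% against 82.6% and 85.5%, and one in Pax3 at chr1:78178000-78178999 read 48.9% and 51.3% against 72.7% and 76.1%. Of the 81, 71 were of intermediate CpG density and 3 were dense.

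Imprinting control regions (ICRs) are methylated on a single parental allele and so usually stand near the middle of the scale whatever the cell type. Of 20 listed ICRs 19 had at least 2 common CpGs. Their mean level was 63.4% and 67.0% in EBs and 59.7% and 61.1% in mESCs, 4.8 points apart, and 15 of the 19 differed by less than 10 points. Meg3 was called higher, at 67.0% and 76.4% in EBs against 39.8% and 48.0% in mESCs (edgeR adjusted p = 1.6e-04), over 8 CpGs of chr12:110762703-110773093. Gpr1 was called higher as well, at 77.0% and 75.7% against 64.8% and 59.0% over 9 CpGs, and lost the call without mESC shCtrl replicate 2. H13 and Impact differed by 12.2 and 11.4 points without passing the test. The H13 ICR was called with at least 20 reads, at 19.4 points, and the Impact ICR without EB shCtrl replicate 1, at 17.3, while without EB shCtrl replicate 2 they differed by 7.9 and 5.6 points, and Impact by 6.2 without mESC shCtrl replicate 1. The ICRs of H19, on 2 CpGs, and of Herc3, Nnat, Plagl1 and Trappc9 were above 90% in all 4 libraries. Grb10, with 75 CpGs, read 56.6% and 52.5% against 51.7% and 55.3%, and the groups overlapped.

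The same change could be looked for in libraries that share none with this comparison, EB shβcat #1 and mESC shβcat #1, with 2 replicates each, in which β-catenin, the effector of Wnt signalling, is knocked down. Over the 785825 CpGs with 10 reads in all 8 libraries, the mean rose by 4.40 points in shCtrl and by 2.92 points in shβcat #1. The mESC libraries read 30.68% and 30.53% in shCtrl and 31.86% and 31.71% in shβcat #1. The EB libraries read 34.85% and 35.18% in shCtrl and 34.49% and 34.92% in shβcat #1, so the arms differed more in mESCs than in EBs. Of 7200 windows called higher in shCtrl and measured in all 8, 6994 were above 0 in shβcat #1 (97.1%, where 65.3% of all windows were), with a median change of 21.9 points in shCtrl and 21 in shβcat #1. Of 1028 called promoters 1008 were above 0 there (98.1%, where 78.5% of all promoters were), as were 2477 of 2543 called bodies (97.4%, where 63.6% of all bodies were), and 59 of 64 windows called lower were below 0. The 19 called germline promoters were above 0 in 19 of 19 cases, and 32 of all 42 germline promoters were. The 7 called pluripotency promoters with a value were above 0 in 7 of 7, and 21 of all 23 were. Prdm14 changed by 35.2 points in shCtrl and by 47.1 in shβcat #1, and Zfp42 by 25.4 in both. Vrtn fell by 28.3 points in shβcat #1, and Meg3 rose by 36.7.

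Whether the change differed with the knockdown was tested as an interaction over 37058 windows. With edgeR's quasi-likelihood test none was called (0%), the smallest adjusted p was 0.0807, and 5865 windows had an unadjusted p under 0.05 (15.8%). With a quasi-binomial F test and 1 shared overdispersion 996 were called, 668 with the larger change in shCtrl. The ICR of Impact went up by 11.4 points in shCtrl and down by 16.9 in shβcat #1, and its interaction did not pass (edgeR adjusted p = 0.102).

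**Figure D5:**
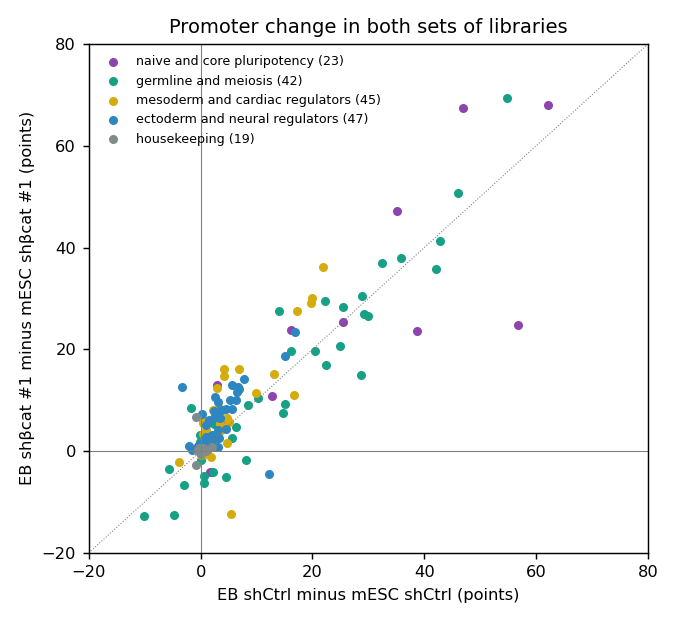
Change of promoter methylation from mESCs to EBs (percentage points) in shCtrl on the x axis and in shβcat #1 on the y axis, 1 point per promoter of 5 gene lists, over CpGs measured in all 8 libraries. Promoters of the germline and pluripotency lists reach over 40 points in both, and the 19 housekeeping promoters lie near 0.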

How the data were processed

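RRBS libraries were read from genomic DNA with the NuGEN Ovation RRBS kit. Per the submitters' notes, the authors trimmed reads (CASAVA 1.8.2, Trim Galore 0.2.8), aligned them with Bismark 0.7.9 to mm9 and deposited, per cytosine, the percent methylated and the counts of methylated and unmethylated reads, for cytosines with at least 10 reads. Whether PCR duplicates were removed is not given in the sources used here, so precision from read counts covers counting error only.

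Both strands of a CpG were summed, and a CpG was kept if each of the 4 libraries covered it with 10 reads or more. CpG density and annotation (GENCODE, same build) came from the reference. Single CpGs were tested with a binomial model (scipy 1.17.1), windows, promoters, gene bodies and ICRs with edgeR 4.0.16 (quasi-likelihood F test, a term per library), each with Benjamini-Hochberg adjustment over all features. These steps were tested on simulated data. A gene with several starts entered with the promoter holding the most common CpGs. ICR coordinates are those the study lists.

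Genes named are the 12 promoters and 6 bodies that moved most each way among called ones with at least 5 and 10 CpGs and no clone name, called list members, a fixed set of marker genes, and the 5 regions with most changed CpGs. Other list members were named to show the range of a list. One list member that the rule would name is not reported here. The libraries, gene lists, tests and alternatives were chosen with earlier results of these data known, so no list is independent evidence. Alternatives covered read minimum, size and CpG minimum, promoter width, density limits, read weighting, strands, a coverage cap, another test, a replicate block and leaving out each library. The common CpGs were chosen anew for each read minimum and each set of libraries, so values there can rest on other sites.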

Additional observations from a re-analysis of the deposited data

How the results depend on the processing

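Every mean and count kept its direction, with rises outnumbering falls, under each alternative that was run. With at least 20 reads the sparse sites rose by 6.26 points, 31358 CpGs were higher and 242 lower, 325 regions were higher, and 4073 windows were higher and 30 lower, over fewer CpGs. Weighting by reads gave 3.27 points over all CpGs and 2.80 at dense sites, and the same without chromosome M, chosen after seeing the data, gave 3.22, 2.80 and, at sparse sites, 5.37. Dense sites of 16 or more CpGs rose by 1.63 points and sparse sites of 2 or fewer by 4.65. A change over 30 points left 370 CpGs lower and 580 regions higher. A change over 25 points left 3388 windows higher and 11 lower, 394 promoters higher and 3 lower, and 572 bodies higher and 0 lower. With 5 changed CpGs there were 3466 regions higher and 8 lower, and on the summed reads of the replicates 1337 and 1. With at least 10 CpGs there were 2483 windows higher, 8 windows lower and 1 body lower, and with at least 5 CpGs 4 promoters lower. Promoters of 250 bases on either side gave 664 higher and 4 lower. The quasi-binomial test called 2 bodies lower.

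Leaving out 1 library at a time, where the lone library of a group is assumed to vary like the others, gave 523 to 1280 CpGs lower, 86 to 195 windows lower, 3 to 7 bodies lower, 6 to 10 promoters lower and 0 to 1 regions lower. Sparse sites then rose by 5.45 to 5.82 points, all CpGs by 4.36 to 4.63, and 774 to 959 promoters, 2251 to 2379 bodies, 7403 to 8289 windows and 38593 to 43071 CpGs were higher.

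Replicate numbers are shared between the groups. Deviations of same-numbered libraries from their group means correlated at -0.036 to -0.012 over the 4 kinds of feature. These deviations include counting error, so the correlations cannot tell whether same-numbered libraries shared a culture, and the labels do not say. With a replicate block 45050 CpGs were higher and 631 lower, 7930 windows higher and 78 lower, 875 promoters higher and 6 lower, and 2167 bodies higher and 3 lower. The block left the interaction at 0 windows, with 5498 at an unadjusted p under 0.05. Of the 60 called promoters, bodies and ICRs that the text names by rule, 39 were called under every alternative, 21 lost the call under at least 1, and none reversed. Among those lost with the block were the promoters of Tdrd1, Smc1b, Slc25a31, Rpl10l, Hand1, Hoxc6, Pax1, Celf2 and Tnfrsf1a. Without the limit of 25 points, 68304 CpGs passed the adjusted p as higher and 1798 as lower.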
